A study of Mus musculus with 6 samples.

Results

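The immunoreceptor signalling chains described here are the CD3 chains Cd3d, Cd3e and Cd3g, the zeta chain Cd247, the FcR gamma chain Fcer1g, the adaptor DAP12 (Tyrobp), the kinase Syk and the membrane adaptor Lat2. All probe sets (groups of short array probes for 1 transcript) annotated with 1 of these 8 symbols were taken, which gave 13 of 12488, and 8 of the 8251 genes that had a probe set with a single symbol. Of these 13, 9 were bright enough to be tested and 4 were not. The cells were intraepithelial lymphocytes, T cells that reside in the epithelium of the small intestine, from untreated C57BL/6 mice under 8 weeks of age. They were sorted from pools of 20 mice into 3 subsets named after their T cell receptor and their form of CD8, which are TCRab CD8aa, TCRgd CD8aa and TCRab CD8ab. A first pool gave 1 array per subset (experiment 1) and a new pool on another occasion gave the second (experiment 2), so each subset had 2 arrays. The mice carried no allele or agent named in the sample descriptions, and 2 titles that write TCRgb were read as TCRgd after their source descriptions.

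A T cell receptor has no signalling tail of its own. It relies on CD3 chains and on a dimer of zeta chains. Their tyrosine motifs are phosphorylated by Src family kinases and then bind the kinase ZAP-70. FcR gamma is closely related to zeta and serves Fc receptors, and it can also replace zeta in the T cell receptor complex. DAP12 carries the same type of motif for activating receptors of natural killer (NK) and myeloid cells, and both adaptors can signal through Syk, the relative of ZAP-70. Lat2, also called NTAL or LAB, is a membrane scaffold related to LAT.

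Fcer1g and Cd247 had differences of opposite sign between TCRab CD8aa and TCRab CD8ab, of which only that of Fcer1g passed the test in the fit with a term for the experiment. Both genes lie on mouse chromosome 1, and the 250 bases before their annotated starts are shown because these 2 chains are closely related and can stand in for each other in the receptor complex. The sequences are from the RefSeq promoter table for GRCm38.p6, which had entries for 6 of the 8 members (Cd3d, Cd3e, Cd3g, Cd247, Fcer1g and Syk). The Fcer1g window is chr1:171234350-171234599 on the minus strand and the Cd247 window is chr1:165788431-165788680 on the plus strand. Capitals mark matches to any of the 5 motifs searched.
Fcer1g: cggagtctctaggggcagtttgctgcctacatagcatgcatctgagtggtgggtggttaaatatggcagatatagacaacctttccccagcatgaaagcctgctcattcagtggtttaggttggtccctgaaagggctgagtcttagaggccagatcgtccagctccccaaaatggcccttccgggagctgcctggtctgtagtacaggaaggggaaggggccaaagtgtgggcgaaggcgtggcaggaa
Cd247: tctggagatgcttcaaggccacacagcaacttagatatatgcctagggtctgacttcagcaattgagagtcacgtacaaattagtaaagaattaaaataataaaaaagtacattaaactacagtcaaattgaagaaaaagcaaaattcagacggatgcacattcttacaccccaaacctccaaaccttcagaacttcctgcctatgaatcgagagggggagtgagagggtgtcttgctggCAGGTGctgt
The motifs were searched on both strands as gaggaa for the PU.1 type of ETS factors, as tgtggt for RUNX, as agataa for GATA factors, as caggtg for the E-box and as tgagtca for AP-1, and none of these letter strings lies within another. The Fcer1g window held none of them, and the Cd247 window held 1 E-box, at 10 to 5 bases before the start. Of 32851 promoter windows of this length, 23.3% held the ETS string, 14% the RUNX string, 9.99% the GATA string, 17.2% the E-box and 4.46% the AP-1 string. Among the 6 members with an entry, the E-box occurred in 4 (Cd3d, Cd3g, Cd247 and Syk), the ETS string in 3 (Cd3d, Cd3e and Syk), the GATA string in 1 (Cd3g), and the other two in 0. These are letter matches and not measured binding sites.

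The arrays were alike in overall brightness, while their 3′ to 5′ control ratios differed between experiments. Median signals ran from 83.5 to 113. Values under a floor, set at a signal of 15.3, were not ordered and made up 17.1% to 24.5% of an array. Control probe sets at the 3′ end of beta-actin were 1.41 to 1.76 times as bright as those at its 5′ end in experiment 1, and 40.4 to 52.2 times in experiment 2. This ratio rises with shortened RNA and also depends on how the RNA was amplified and labelled. The sort was visible in Cd8b1, the CD8 beta chain, whose difference from TCRab CD8ab was log2 -8.23 for TCRab CD8aa and log2 -7.24 for TCRgd CD8aa. Trgv4, a gamma chain segment, was higher by 3.53 in TCRgd CD8aa and also by 1.66 in TCRab CD8aa, and all 4 of these differences passed with the experiment term (limma adjusted p of 0.00166, 0.00344, 0.000944 and 0.0359). The 8 measured markers of intestinal T cells (of 9 listed) exceeded the brightness filter on all 6 arrays. The second TCRgd CD8aa array stood apart in epithelial RNA: the summed signal of the 13 enterocyte markers on the array (of 16 listed) was 26842 there and 1035 to 2457 on the other arrays. Epcam, a listed epithelial marker, also differed with the subsets: its signal was 617 and 517 in TCRab CD8aa, 75.9 and 38.1 in TCRab CD8ab, and 351 and 694 in TCRgd CD8aa (experiments 1 and 2). It was higher than in TCRab CD8ab by log2 3.39 and 3.20 in these CD8aa subsets (limma adjusted p of 0.0191 and 0.0287 with the experiment term), in the same comparisons as Tyrobp, Fcer1g and Lat2. Of the 12 enterocyte markers tested, Epcam was the only 1 called in either comparison. The share of all tested probe sets called was 0.819% for TCRab CD8aa and 0.542% for TCRgd CD8aa. The median difference of the 12 enterocyte markers was -0.25 for TCRab CD8aa and 1.94 for TCRgd CD8aa. The part of epithelial RNA in the results was not tested, and the TCRgd CD8aa differences of the members are also given without the second array of that subset.

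Tyrobp, which encodes DAP12, was abundant in both CD8aa subsets and low in TCRab CD8ab. Its signal was 12064 and 7524 in TCRab CD8aa, 216 and 459 in TCRab CD8ab, and 10956 and 3640 in TCRgd CD8aa (experiments 1 and 2 in this order, as below). The 4 CD8aa arrays all lay above both TCRab CD8ab arrays. TCRab CD8aa exceeded TCRab CD8ab by log2 4.92 ± 0.53 (SE, n = 2 arrays per subset). SE here and below are moderated by limma, which draws on the spread of all tested probe sets. The difference was 30.3-fold, with 56.0-fold in experiment 1 and 16.4-fold in experiment 2. This difference passed with the experiment term (limma adjusted p = 0.00355) and did not without it (adjusted p = 0.322). TCRgd CD8aa exceeded TCRab CD8ab by 4.33 ± 0.53, or 20.1-fold (limma adjusted p = 0.00894 with the experiment term and 0.533 without). Without the second TCRgd CD8aa array that difference was 5.23. In pooled sorted cells, a larger share of cells with the transcript and more transcript per cell cannot be told apart, here or below.

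Fcer1g, the FcR gamma chain, was likewise higher in both CD8aa subsets than in TCRab CD8ab. The signal of its brighter probe set (162181_f_at) was 1030 and 594 in TCRab CD8aa, 12.8 and 37.6 in TCRab CD8ab, and 1365 and 520 in TCRgd CD8aa. Both TCRab CD8ab values were under the brightness filter of 56.3, so this probe set was tested only through its 4 CD8aa arrays. The TCRab CD8ab value of experiment 1 was also under the floor, so folds of experiment 1 against this subset are lower bounds. TCRab CD8aa was at least 67.3-fold higher in experiment 1 and 15.8-fold in experiment 2, and TCRgd CD8aa at least 89.2-fold and 13.8-fold. The fitted mean differences, with the floor in place of the lower value, were log2 5.03 ± 0.60 for TCRab CD8aa and 5.13 ± 0.60 for TCRgd CD8aa (SE, n = 2). Both differences passed in limma with the experiment term (adjusted p of 0.00624 and 0.0075) and failed without it (0.322 and 0.533). Without the second TCRgd CD8aa array the latter was 5.96. The other Fcer1g probe set (160692_at) was dim on every array, with signals of 3.1 and 22.3 in TCRab CD8aa, 42.5 and 42.8 in TCRab CD8ab, and 11.3 and 54.9 in TCRgd CD8aa. It was not tested and did not show the higher level of the CD8aa subsets. Leaving out either TCRab CD8ab array moved the size of these differences and not the calls with the experiment term. Without the first they were 3.83 and 3.94 for Fcer1g and 3.81 and 3.21 for Tyrobp in TCRab CD8aa and TCRgd CD8aa, and without the second they were 6.22 and 6.33 for Fcer1g and 6.03 and 5.44 for Tyrobp. The suffix _f_at marks a probe set that may also match related transcripts, and the Fcer1g result rests on it alone.

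Lat2, the LAT-like adaptor, was measured by 2 probe sets, and both were higher in the CD8aa subsets within each experiment. The signal of 103690_at was 4509 and 4789 in TCRab CD8aa, 985 and 496 in TCRab CD8ab, and 4417 and 3972 in TCRgd CD8aa. The 4 CD8aa values thus lay close together and well above both TCRab CD8ab values. The differences from TCRab CD8ab were log2 2.73 ± 0.33 (SE, n = 2), or 6.65-fold, for TCRab CD8aa and 2.58 ± 0.33, or 5.99-fold, for TCRgd CD8aa (limma adjusted p of 0.00688 and 0.0118 with the experiment term, and 0.600 and 0.845 without). The latter was 2.43 without the second TCRgd CD8aa array. The second probe set, 161899_f_at, had signals of 845 and 3815 in TCRab CD8aa, 145 and 1170 in TCRab CD8ab, and 601 and 4498 in TCRgd CD8aa. Here the subsets overlapped across experiments, because every array of experiment 2 was brighter than its counterpart. Within experiments the differences were 2.54 and 1.71 for TCRab CD8aa and 2.05 and 1.94 for TCRgd CD8aa, and their means passed in limma with the experiment term (adjusted p of 0.0226 and 0.0369) but not without it (1 and 1). The 103690_at call in TCRab CD8aa was lost without the second TCRab CD8aa array (2.40, adjusted p = 0.0772). The 161899_f_at call in TCRab CD8aa was lost without the first TCRab CD8aa array (1.73, adjusted p = 0.230) or the second (2.51, adjusted p = 0.0772). In TCRgd CD8aa it was lost without the first TCRab CD8ab array (1.76, adjusted p = 0.0621), the second (2.23, adjusted p = 0.0573) or the second TCRgd CD8aa array (1.84, adjusted p = 0.123).

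**Figure D1:**
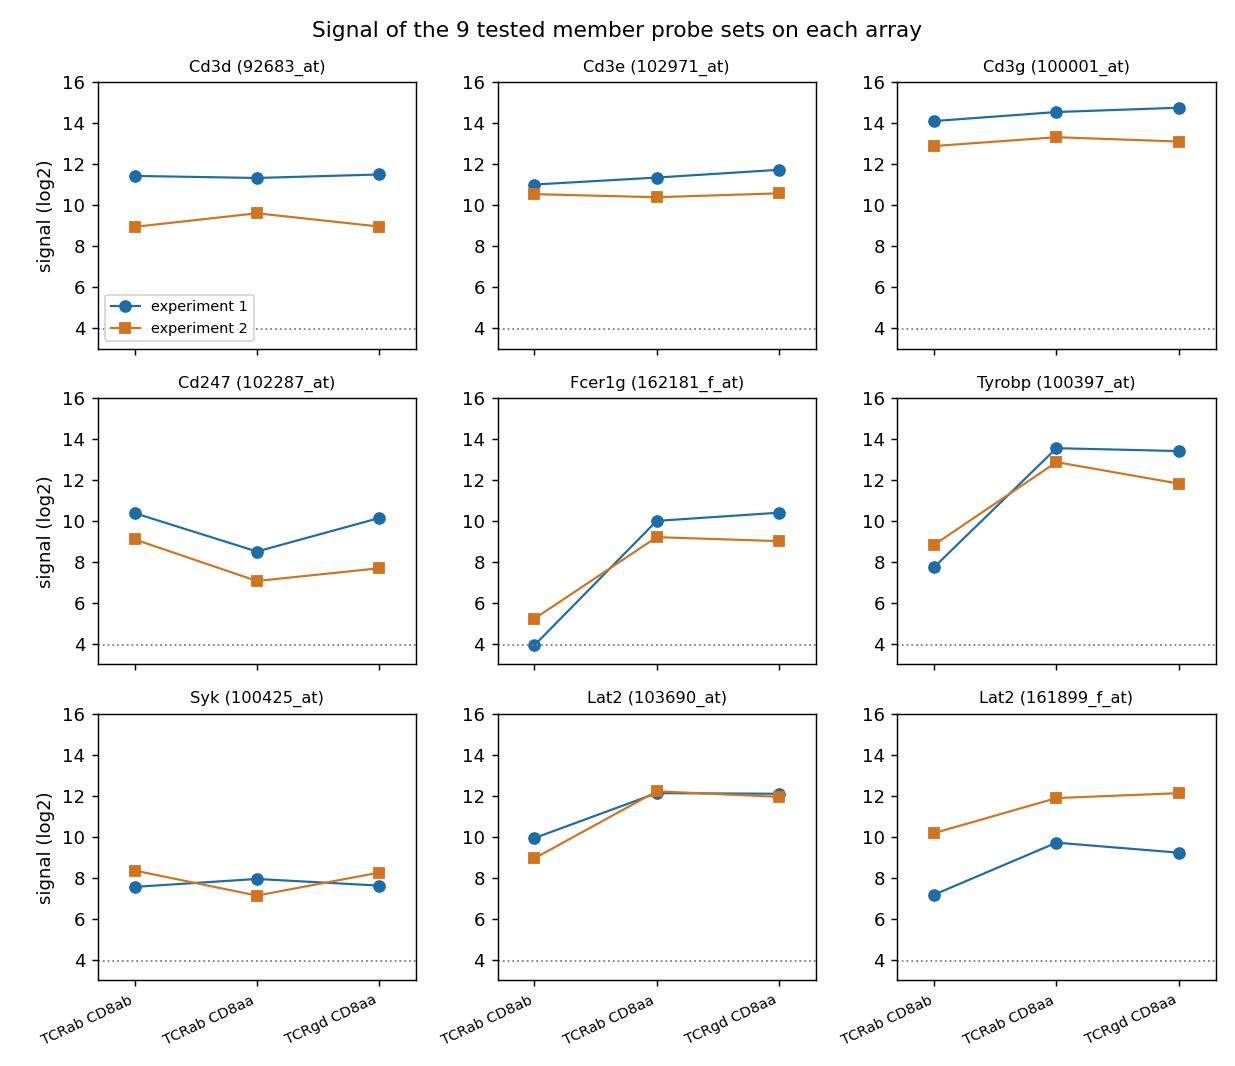
Log2 signal (vertical axes, same scale) of each of the 9 tested probe sets in the 3 subsets (horizontal axes). Lines join the 3 arrays of 1 experiment (circles for experiment 1, squares for experiment 2), and the dotted line is the floor at log2 3.94. Fcer1g, Tyrobp and both Lat2 probe sets climb from TCRab CD8ab to the CD8aa subsets in both experiments, Cd247 dips in TCRab CD8aa, and the CD3 chains are nearly level within an experiment.

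Cd247, the zeta chain, went the other way in TCRab CD8aa, but this did not pass the test. The signal of probe set 102287_at was 366 and 135 in TCRab CD8aa, 1345 and 552 in TCRab CD8ab, and 1140 and 208 in TCRgd CD8aa. Both TCRab CD8aa arrays lay below both TCRab CD8ab arrays. The TCRgd CD8aa array was near TCRab CD8ab in experiment 1 and nearer to TCRab CD8aa in experiment 2. The value in TCRab CD8aa was 3.88-fold below that of TCRab CD8ab, with log2 -1.88 and -2.03 in the 2 experiments and a mean of -1.96 ± 0.39 (SE, n = 2; 95% interval -2.84 to -1.07 for this probe set alone). The limma adjusted p over all probe sets was 0.0685 with the experiment term and 1 without it. Of 17 settings with the experiment term, 6 called it. A stricter brightness filter did (limma adjusted p = 0.0388), as did the fit of only these 2 subsets (limma adjusted p = 0.00227). In the latter the difference was the same, -1.96, and its SE was larger, 0.46 instead of 0.39. Its smaller adjusted p thus does not reflect a larger or more precise difference. The other settings were the cutoff of 0.10 and fits without 1 array. Those fits gave -2.29 ± 0.44 without the first TCRab CD8ab array. Without the first or the second TCRgd CD8aa array the difference stayed at -1.96, with SE of 0.47 and 0.45.

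TCRgd CD8aa had Cd247 differences of log2 -0.24 and -1.41 from TCRab CD8ab and of 1.64 and 0.62 from TCRab CD8aa. Neither mean passed in limma with the experiment term (-0.82 ± 0.39, adjusted p = 0.648, and 1.13 ± 0.39, adjusted p = 1). Without the second TCRgd CD8aa array the difference from TCRab CD8ab was -0.28. The second Cd247 probe set (102288_at) was dim and not tested, with signals of 15.0 and 41.4 in TCRab CD8aa, 86.4 and 27.5 in TCRab CD8ab, and 8.4 and 11.3 in TCRgd CD8aa. It had the highest value in TCRab CD8ab in experiment 1 and not in experiment 2.

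The CD3 chains showed no difference that passed between subsets. Cd3g, the gamma chain of CD3, had signals of 24011 and 10238 in TCRab CD8aa, 17632 and 7597 in TCRab CD8ab, and 27660 and 8810 in TCRgd CD8aa. The order of the subsets changed between experiments, and every array of experiment 1 was brighter than any of experiment 2. Cd3e, the epsilon chain, had 2616 and 1343 in TCRab CD8aa, 2056 and 1491 in TCRab CD8ab, and 3397 and 1532 in TCRgd CD8aa. Cd3d, the delta chain, had 2576 and 779, 2752 and 493, and 2903 and 497 in the same order of subsets (probe set 92683_at). For Cd3d and Cd3g the spread between experiments was wider than that between subsets of 1 experiment. The 9 differences among subsets ran from log2 -0.24 to 0.44 with SE of 0.30 to 0.32 (n = 2), and their limma adjusted p ran from 0.661 to 1 with the experiment term. The 95% intervals of single probe sets reached from -0.58 to 1.10 for TCRab CD8aa against TCRab CD8ab, so differences within that range remain possible at this precision. Without the second TCRgd CD8aa array, TCRgd CD8aa differed from TCRab CD8ab by 0.27 for Cd3d, 0.60 for Cd3e and 0.65 for Cd3g. A further Cd3d probe set (161863_r_at) was at the floor on all 6 arrays.

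Syk, the kinase that both NK-type adaptors can recruit, showed no difference that passed between subsets. The signal of 100425_at was 247 and 141 in TCRab CD8aa, 189 and 329 in TCRab CD8ab, and 197 and 307 in TCRgd CD8aa. TCRab CD8aa was the brightest subset in experiment 1 and the dimmest in experiment 2, so the subsets had no common order. The differences from TCRab CD8ab were log2 -0.42 ± 0.48 for TCRab CD8aa (95% interval -1.51 to 0.67) and -0.02 ± 0.48 for TCRgd CD8aa (-1.11 to 1.07), with limma adjusted p of 0.818 and 1 with the experiment term (n = 2). The second Syk probe set (100426_s_at) was at the floor on all 6 arrays. The latter difference was -0.34 without the second TCRgd CD8aa array. Syk thus did not pass in either comparison in which Fcer1g, Tyrobp and Lat2 passed, and the difference between these genes' changes was not tested.

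No member passed the test between the 2 CD8aa subsets. TCRgd CD8aa differed from TCRab CD8aa by log2 0.11 ± 0.60 for Fcer1g (95% interval -1.25 to 1.46), -0.59 ± 0.53 for Tyrobp (-1.79 to 0.60), -0.15 ± 0.33 for Lat2 103690_at (-0.90 to 0.60) and 0.40 ± 0.48 for Syk (-0.69 to 1.49). All 9 tested probe sets had limma adjusted p of 1 with the experiment term (n = 2). Without the second TCRgd CD8aa array the differences were 0.93 for Fcer1g, 0.30 for Tyrobp, -0.30 and -0.28 for the Lat2 probe sets, 0.08 for Syk, 1.68 for Cd247, and -0.02, 0.50 and 0.21 for Cd3d, Cd3e and Cd3g, and none passed. The 95% intervals with all arrays leave room for differences of about 1 log2 unit or more in Fcer1g, Tyrobp and Syk.

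**Figure D2:**
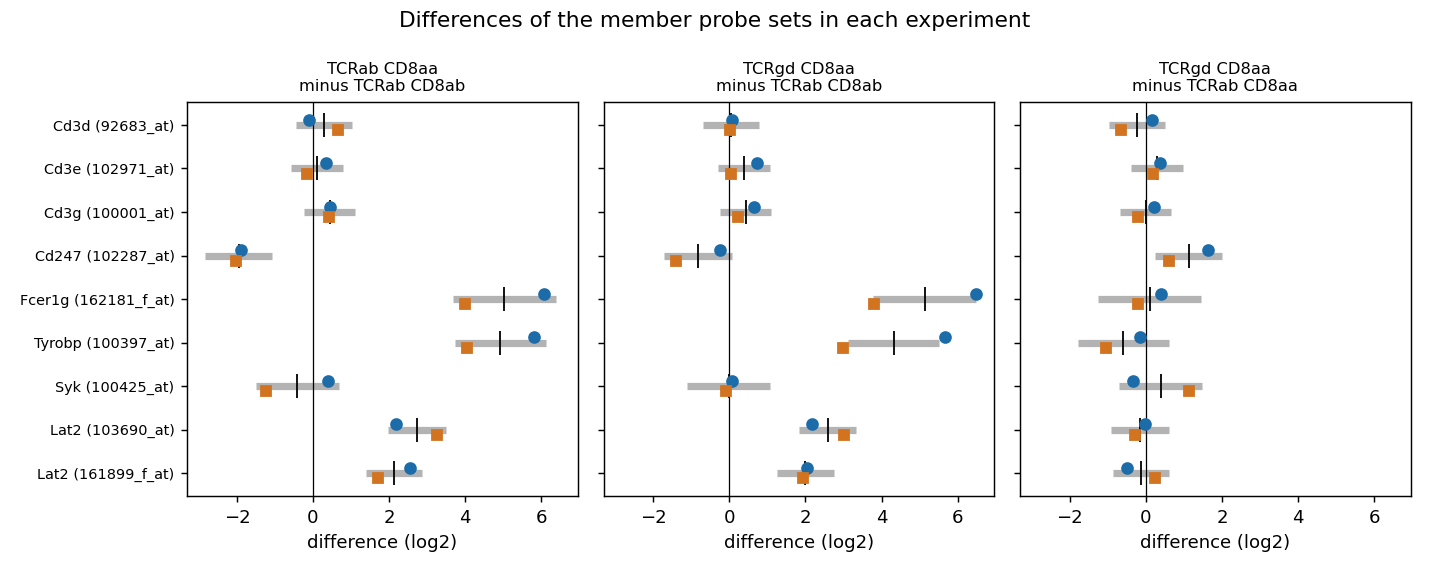
Log2 difference (horizontal axes) of each tested member probe set (rows) in the 3 comparisons (panels), with circles for experiment 1, squares for experiment 2, black ticks for their mean and grey bands for the 95% interval of the fit with the experiment term. Fcer1g and Tyrobp lie at 2.99 to 6.48 in every experiment of the first 2 panels, Cd247 lies below 0 in both, and the panel of the 2 CD8aa subsets has no member that passed.

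Counted together, 4 of 9 member probe sets were higher and 0 lower in TCRab CD8aa than in TCRab CD8ab with the experiment term, where 0.819% of all 8301 tested probe sets were called (68, of which 43 were higher). For TCRgd CD8aa against TCRab CD8ab it was the same 4 of 9, with 0.542% of all called (45, of which 28 were higher). Fcer1g is among these 4 and met the brightness filter only on CD8aa arrays. Between the CD8aa subsets 0 of 9 were called, with 0.0241% of all (2). Without the experiment term limma called 0 members and 0% of all probe sets in each comparison. At an unadjusted p under 0.05 that fit held 3, 3 and 0 members and 188, 168 and 34 of all probe sets. With the experiment term but without the intensity trend in the variance, or without a brightness filter, 0 members were called. The 2 arrays of a subset lay wholly above or below those of the other for 4 of 9 members in TCRab CD8aa against TCRab CD8ab, against 22.9% of all probe sets. The same count was 3 of 9 against 19.8% for TCRgd CD8aa against TCRab CD8ab, and 1 of 9 against 14.4% for the CD8aa subsets. The median member difference was log2 0.44, 0.43 and -0.01 in the 3 comparisons, beside -0.08, -0.06 and 0.00 for all tested probe sets. Both comparisons with TCRab CD8ab use the same 2 arrays of that subset.

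The balance between the chain types was taken on each array as the mean log2 signal of Fcer1g and Tyrobp minus that of the T cell chains. These were Cd3d, Cd3e, Cd3g and Cd247, and the brightest probe set of each gene was used. Probe sets differ in brightness for the same amount of RNA, so the balance has no meaning as a level and only its differences between arrays are read. It was 0.35 and 0.95 in TCRab CD8aa, -5.89 and -3.33 in TCRab CD8ab, and -0.12 and 0.34 in TCRgd CD8aa. TCRab CD8ab was thus far below the other subsets in both experiments. The balance of TCRab CD8aa exceeded that of TCRab CD8ab by 6.24 and 4.28, a mean of 5.26 ± 1.38 log2 units (SD, n = 2 experiments). TCRgd CD8aa exceeded TCRab CD8ab by 5.77 and 3.67, a mean of 4.72 ± 1.48 (SD, n = 2). The value of experiment 1 is a lower bound in both, since Fcer1g was at the floor in TCRab CD8ab.

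With the mean of all probe sets of a gene, the balance differences from TCRab CD8ab were smaller, 3.61 for TCRab CD8aa and 3.41 for TCRgd CD8aa. With the brightest probe sets, nearly all of the difference lay in the NK-type chains, of which Fcer1g met the brightness filter only on CD8aa arrays. The mean of the NK-type chains differed by 5.94 and 4.01 for TCRab CD8aa and by 6.07 and 3.39 for TCRgd CD8aa against TCRab CD8ab. The mean of the T cell chains differed by -0.30 and -0.27 for TCRab CD8aa and by 0.30 and -0.29 for TCRgd CD8aa. Among the T cell chains themselves, Cd247 relative to the mean of the 3 CD3 chains was lower in TCRab CD8aa than in TCRab CD8ab by -2.11 and -2.35, a mean of -2.23 ± 0.17 log2 units (SD, n = 2). For TCRgd CD8aa this ratio differed from TCRab CD8ab by -0.72 and -1.50. The ratio of Fcer1g to Cd247, the related pair of chains, was higher by at least 7.95 and by 6.02 log2 units in TCRab CD8aa and by at least 6.72 and by 5.20 in TCRgd CD8aa. The CD8aa subsets differed less, TCRgd CD8aa being below TCRab CD8aa in the balance by -0.46 and -0.61 and in the ratio of Fcer1g to Cd247 by -1.23 and -0.82. With the second TCRgd CD8aa array left out, the paired differences that remain for its balance are those of experiment 1. They were at least 5.77 from TCRab CD8ab and -0.46 from TCRab CD8aa. Against the 2-array means of those subsets they were 4.49 and -0.77, which mixes in the shift between experiments. No test was run on these sums, because the chains were chosen with results of these data known.

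**Figure D3:**
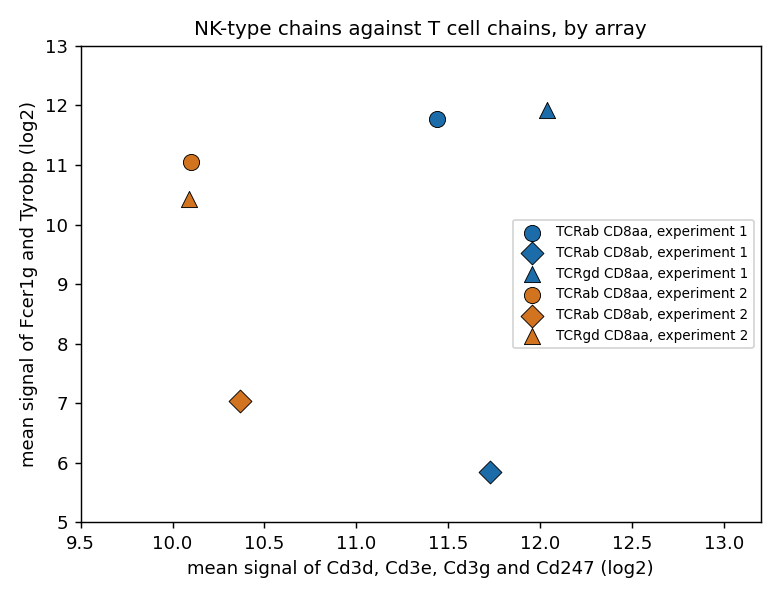
Mean log2 signal of the NK-type chains Fcer1g and Tyrobp (vertical axis) against that of the T cell chains Cd3d, Cd3e, Cd3g and Cd247 (horizontal axis), 1 point per array, with shapes for the subsets and colours for the experiments (blue for 1, orange for 2). The 2 TCRab CD8ab arrays lie at 5.84 and 7.04 on the vertical axis and the 4 CD8aa arrays at 10.4 to 11.9, while experiments separate along the horizontal axis.

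The T cell chains were dimmer in experiment 2 in every subset. From experiment 1 to 2 the signal was lower by 3.31-fold to 5.84-fold for Cd3d, 2.44-fold to 5.49-fold for Cd247, 2.32-fold to 3.14-fold for Cd3g and 1.38-fold to 2.22-fold for Cd3e, over the 3 subsets. The 2 Lat2 probe sets did not shift together: 103690_at moved by log2 -0.99 to 0.09, and 161899_f_at was higher in experiment 2 by 2.18 to 3.01. Fcer1g and Tyrobp were lower in experiment 2 in both CD8aa subsets (log2 -1.59 to -0.68) and higher in TCRab CD8ab (at least 1.30 for Fcer1g, which was under the floor in experiment 1, and 1.09 for Tyrobp). The medians of all tested probe sets shifted by -0.15, 0.06 and -0.08 in TCRab CD8aa, TCRab CD8ab and TCRgd CD8aa. The actin and Gapdh 3′ to 5′ ratios differed between the experiments as given above, and their part in these shifts was not tested.

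Other cell types that use FcR gamma or DAP12 were sought through their markers. Mast cell markers, 10 of 10 on the array, summed to 521 and 283 in TCRab CD8aa, 331 and 354 in TCRab CD8ab, and 379 and 890 in TCRgd CD8aa. Tpsb2, a tryptase, was above the brightness filter on all 6 arrays (65.8 to 197), while Mcpt4 and Tpsab1, other mast cell proteases, did not exceed 15.5 on any. Cpa3 was 53.5 on the first TCRab CD8aa array and 9.8 and 10.7 on the TCRab CD8ab and TCRgd CD8aa arrays of experiment 1, and Cma1 was 61.9, 33.5 and 85.5 on those 3. In experiment 2 TCRab CD8aa was below TCRab CD8ab for both (2.5 and 32.6 for Cpa3, 24.0 and 38.4 for Cma1). Mcpt1 (332) and Mcpt2 (245) were highest on the second TCRgd CD8aa array. Macrophage and monocyte markers, 11 of 11, summed to 978 and 605, 1078 and 1208, and 907 and 1886 in the same order. In experiment 1, some of those above the floor were higher in TCRab CD8aa than in TCRab CD8ab. They were C1qa (82.6 and 67.6), C1qb (57.6 and 51.6), C1qc (135 and 63.3), Mpeg1 (117 and 74.6) and Cd14 (181 and 164). Csf1r (151 and 232), Cd68 (171 and 330) and Fcgr1 (56.5 and 77.6) were lower there. In experiment 2 all of these were lower in TCRab CD8aa. Cd14 (164 to 437), Cd68 (76.1 to 330) and Mpeg1 (68.5 to 670) were above the filter on all 6 arrays and Csf1r reached 232. Itgam and Adgre1, which mark macrophages, did not exceed 16.5 and 23.1, and Lyz2 was 5.4 to 11.4 except on the second TCRgd CD8aa array (303). Neutrophil markers, 8 of 8, summed to 746 and 623, 632 and 587, and 909 and 648. The 6 tested did not move together in TCRab CD8aa against TCRab CD8ab. Ltf differed by log2 1.85, Csf3r by 1.48 and Camp by 0.19, while Mpo differed by -0.49, S100a8 by -1.10 and Elane by -1.29. None of these neutrophil markers was called, and their median was -0.15. NK cell markers, 4 of 8 on the array, summed to 273 and 161, 192 and 245, and 242 and 156, and Ncr1, the NK receptor NKp46, did not exceed 19.9. Gzmc, a granzyme, was 173 and 103 in TCRab CD8aa, 11.8 and 53.2 in TCRab CD8ab, and 180 and 25.4 in TCRgd CD8aa, while Eomes, a transcription factor, was 35.7 and 1.7, 141 and 134, and 15.7 and 64.9. Neither passed in limma with the experiment term (adjusted p of 0.491 and 0.385 for TCRab CD8aa against TCRab CD8ab, n = 2). Itga2 was 33.6 to 58.2 over the 6 arrays. Dendritic cell and MHC class II markers, 8 of 8, summed to 2561 and 1242, 4255 and 1872, and 3291 and 2918. Ccr7, a homing receptor that T cells also express, made up 2579 of the 4255 on the first TCRab CD8ab array and did not exceed 49.6 elsewhere. Itgax, the CD11c chain, was 1693 and 625 in TCRab CD8aa, 682 and 731 in TCRab CD8ab, and 2233 and 915 in TCRgd CD8aa. Platelet and erythroid markers, 4 of 8, summed to 159 to 278 over the 6 arrays. B cell markers, 9 of 10, summed to 4662 and 1864, 1970 and 1734, and 4295 and 1975, most of the 2 largest values being Ighm. Ighm, the IgM heavy chain, was higher in TCRab CD8aa than in TCRab CD8ab by log2 1.85 ± 0.31 (SE, n = 2; limma adjusted p = 0.0292 with the experiment term). Cd79b, a signalling chain of the B cell receptor, was 423 to 744 and Ms4a1, which encodes CD20, 85.8 to 407 over the 6 arrays, while Ebf1 and Cr2 did not exceed 14.9 and 12.7. In the comparison where Ighm was higher, Cd79a differed by -0.88, Cd79b by -0.02, Ms4a1 by -1.16 and Pax5 by -0.77. None of these was called, and the median of the 5 tested B cell markers was -0.77. The part of RNA from these cell types in the members' values was not tested.

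Receptors that pair with FcR gamma, DAP12 or the related DAP10 could be followed only in part. Of 30 genes listed as such receptors or their close relatives, 10 were on the array and 5 of them were bright enough to be tested. Of all tested probe sets, 0.819% were called for TCRab CD8aa and 0.542% for TCRgd CD8aa against TCRab CD8ab. Of the 5 receptors, 1 was higher and 0 were lower in each of these comparisons. That gene was Klrb1a, an NKR-P1 receptor, higher by log2 4.32 ± 0.42 (19.9-fold) in TCRab CD8aa and 3.61 ± 0.42 (12.2-fold) in TCRgd CD8aa (SE, n = 2; limma adjusted p of 0.00207 and 0.00721 with the experiment term). Klrd1, the CD94 chain of NKG2 receptors, differed by 1.52 ± 0.31 and 1.74 ± 0.31 and did not pass (adjusted p of 0.0775 and 0.0583 in the same limma fit). Klrk1 (NKG2D) differed by 0.26 and 2.96 in the 2 experiments of TCRab CD8aa and by -1.31 and 1.90 in those of TCRgd CD8aa. In experiment 1, without the second TCRgd CD8aa array, the TCRgd CD8aa difference was 3.50 for Klrb1a and 1.52 for Klrd1. The list's median was 1.52 and 0.30 in the comparisons of TCRab CD8aa and TCRgd CD8aa with TCRab CD8ab, beside -0.08 and -0.06 for all probe sets. With 5 genes tested, these medians are the values of single genes, Klrd1 and Klrb1b, a relative of Klrb1a. Whether Klrb1b uses these adaptors was not tested.

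Of 26 listed genes of proximal T cell receptor signalling, 18 were tested. Against TCRab CD8ab, TCRgd CD8aa had 0 in either direction, where 0.542% of all tested probe sets were called. Against that subset TCRab CD8aa had 2 higher and 0 lower, where 0.819% of all were called. The 2 were Tec and Txk, kinases of the Tec family, which activate phospholipase C gamma. They were higher by log2 1.94 ± 0.30 and 1.80 ± 0.31 in TCRab CD8aa (SE, n = 2; limma adjusted p of 0.0213 and 0.0359 with the experiment term). In TCRgd CD8aa they differed by 1.61 ± 0.30 and 1.63 ± 0.31 (adjusted p of 0.0671 and 0.0804 in limma), with 1.53 and 2.07 in experiment 1. Zap70, the kinase that binds CD3 and zeta motifs, differed by 0.11 ± 0.31 and 0.29 ± 0.31, and Lat, the scaffold related to Lat2, by 0.02 ± 0.39 and -0.32 ± 0.39 in TCRab CD8aa and TCRgd CD8aa. The list's median was 0.00 and -0.02.

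Of 25 listed genes on the Syk side, downstream of Fc and NK receptors, 19 were on the array and 12 were tested. Of all tested probe sets, 0.819% were called for TCRab CD8aa and 0.542% for TCRgd CD8aa against TCRab CD8ab, and 0.0241% between the CD8aa subsets. Of the 12 genes, 0 were called in any comparison. The 2 with the smallest p were Plcg2, a phospholipase C, at 1.47 ± 0.35 in TCRab CD8aa (SE, n = 2; limma adjusted p = 0.139 with the experiment term) and 1.34 ± 0.35 in TCRgd CD8aa (adjusted p = 0.228), and Sh3bp2, a Syk-binding adaptor, at 1.497 ± 0.49 (adjusted p = 0.341) and 1.28 ± 0.49 (adjusted p = 0.514). In experiment 1 the TCRgd CD8aa differences were 1.89 for Plcg2 and 1.52 for Sh3bp2. The list's median was 0.44 and 0.20. Between the 2 CD8aa subsets 0 genes of these 3 lists were called, and without the experiment term limma called 0 in every comparison.

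**Figure D4:**
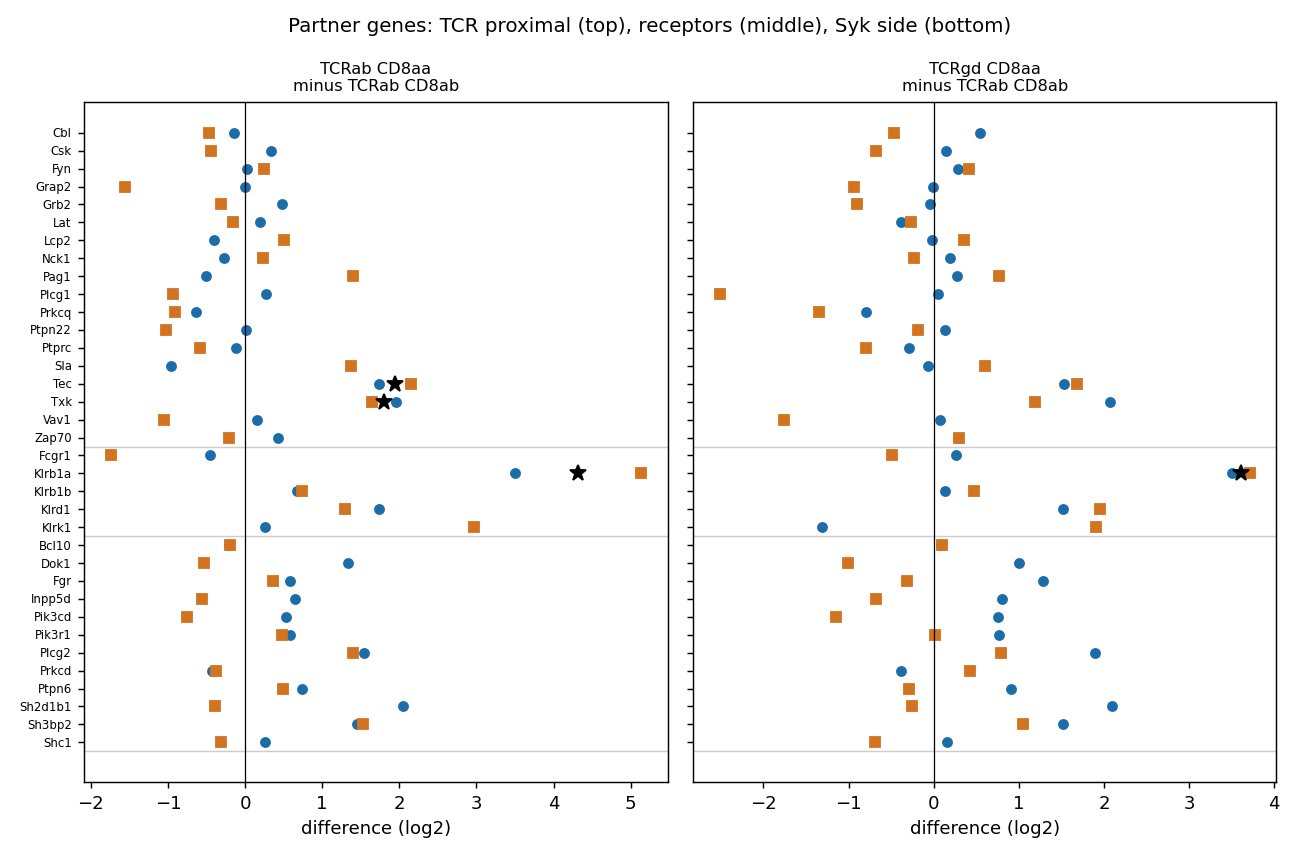
Log2 difference from TCRab CD8ab (horizontal axes) of the tested partner genes (rows, 3 lists separated by grey lines) in TCRab CD8aa (left) and TCRgd CD8aa (right), with blue circles for experiment 1, orange squares for experiment 2 and a star at the mean of each gene called with the experiment term. Stars stand at Tec, Txk and Klrb1a on the left and at Klrb1a alone on the right.

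Genes whose pattern over the 6 arrays was most like that of a member were ranked by Pearson's r of log2 signal after the mean of each experiment was taken out, among 1122 to 1124 genes that spanned at least 2 log2 units. For Fcer1g they were Napsa (0.9995), an aspartic protease, Mcam (0.9989), an adhesion molecule, and Tyrobp (0.9917). For Tyrobp they were Entpd1 (0.9962), which encodes the ectonucleotidase CD39, Txk (0.996) and Mcam (0.9955). For Lat2 they were Myo6 (0.9975), Pkp2 (0.9951) and Selenbp1 (0.993), which are also expressed in epithelium. For Syk they were Cacnb2 (0.9964), Ngef (0.9895) and Kcnab1 (0.9888), but Syk itself spanned only 1.23 log2 units. These values describe 6 arrays of 2 pools, and no test was run on them.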

How the data were processed

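Total RNA of 6 sorted samples was hybridised to 1 Affymetrix array each. The deposited values are signal intensity, 1 per probe set, made with MAS5 per the submitters' processing notes (version not given in the sources used here). Detection calls were not used. The members and gene lists were chosen with earlier results of these data known.

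Arrays were scaled to a common 2% trimmed mean (500.4; factors of 0.999915 to 1.00006). Lower values were raised to the 20th percentile (15.3) before taking log2. Probe sets above the 40th percentile (56.3) on at least 2 arrays were tested, 8301 of 12488. Of all probe sets, 66 were controls, 10833 had 1 symbol, 396 several and 1193 none. No 2 arrays shared more than 45 equal values.

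The planned fit was limma 3.58.1 (R 4.3.3) on all 6 arrays with an intensity trend and Benjamini-Hochberg adjusted p under 0.05, and did not model the experiment. A second fit had the experiment as a replicate block. All subsets of an experiment came from 1 pool of mice, so the numbers pair the arrays. Deviations from subset means correlated at 0.618, 0.713 and 0.603. Standard errors and intervals are those of the blocked fit, with the variance of each probe set moderated towards the intensity trend of all tested probe sets. P-values of the fit without the block measure the spread between pooled samples. Those of the blocked fit measure the spread that is left once the shift between experiments is removed. Neither measures the spread between mice, and the number of arrays limits the precision. Each gene list used the brightest probe set of a gene. Named were all member probe sets, list genes called in either fit or else the 2 with the smallest p, and the 3 genes most alike. Zap70, Lat, Klrd1, Klrk1 and single marker genes were added after their values were seen. The script was tested on simulated data.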

Additional observations from a re-analysis of the deposited data

How the results depend on the processing

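Without the replicate block, limma called 0 probe sets under every setting run, those leaving out an array included. With the replicate block, TCRab CD8aa against TCRab CD8ab, TCRgd CD8aa against TCRab CD8ab and TCRgd against TCRab CD8aa gave, in this order, 68, 45 and 2 calls among all probe sets, 72, 50 and 1 after quantile normalization, 68, 45 and 2 with no further scaling, 61, 45 and 2 with a floor at the 10th percentile, 67, 46 and 2 at the 30th, and 73, 46 and 2 with a constant of 16 in its place. They were 90, 55 and 2 with a filter at the 60th percentile, 6, 3 and 1 without the intensity trend, 169, 50 and 2 with only the arrays of the 2 subsets, 109, 63 and 2 at an adjusted p under 0.10, and 0 in each without a filter. Member probe sets called with the replicate block were 4 in both comparisons with TCRab CD8ab, also under the other scaling and floor settings, except 3 for TCRgd CD8aa after quantile normalization. They were 5 and 4 with the filter at the 60th percentile, with 2 subsets only or at 0.10, and 0 without a filter or without the trend. Leaving out 1 array gave 0 to 182, 0 to 193 and 0 to 114 calls among all and 0 to 5, 0 to 4 and 0 to 0 among members, over both fits; where a subset keeps 1 array, it is assumed to vary like the others. With the block the lowest counts among all were 22, 30 and 1, and members called in TCRab CD8aa against TCRab CD8ab fell to 2 without the second TCRab CD8aa array. The balance without 1 array was 3.98 to 6.54, 3.44 to 6.00 and -0.84 to -0.24. Where a compared subset keeps 1 array, these differences are not paired, so the shift between experiments enters them. It was 3.61 for TCRab CD8aa against TCRab CD8ab and -0.20 between the CD8aa subsets with the mean of all probe sets of a gene. With Syk and Lat2 added it was 3.35, 2.998 and -0.35.

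Of 891 alternative values of single members 47 changed sign, 45 of them on leaving out an array, and none lost a call, since the planned fit made none. The other 2 were Syk in TCRgd CD8aa against TCRab CD8ab at 0.057 after quantile normalization, with and without the block. In TCRab CD8aa against TCRab CD8ab the ranges without 1 array that crossed 0 were -0.96 to 1.52 for Cd3d, -0.38 to 0.58 for Cd3e, -0.18 to 1.05 for Cd3g and -1.19 to 0.35 for Syk. In TCRgd CD8aa against TCRab CD8ab they were -2.05 to 0.40 for Cd247, -1.23 to 1.32 for Cd3d, -0.19 to 0.96 for Cd3e, -0.39 to 1.26 for Cd3g and -0.46 to 0.43 for Syk. Between the CD8aa subsets they were -0.096 to 2.36 for Cd247, -1.51 to 1.03 for Cd3d, -0.29 to 0.86 for Cd3e, -0.83 to 0.82 for Cd3g, -0.72 to 0.93 for Fcer1g, -0.48 to 0.18 and -1.58 to 1.33 for Lat2, -0.37 to 1.17 for Syk and -1.49 to 0.30 for Tyrobp. The cause was not tested.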
